A study of Mus musculus with 6 samples.

Results

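The genes described here are the CC chemokines Ccl2, Ccl3, Ccl4, Ccl5, Ccl6, Ccl7, Ccl8, Ccl9, Ccl11 and Ccl19. They were chosen by name as members of 1 gene family, and they are 10 of the 21671 genes in the RPKM table, of which 9 passed the filter on low values, Ccl19 being the exception. RNA-Seq was performed on freshly sorted cells of homozygous mdxITGAM-DTR mice of 10 to 12 weeks, in 3 groups of 2 libraries, each made from 2 pooled mice. These mice carry the mdx mutation, so all groups lack dystrophin. They also carry a transgene in which ITGAM (CD11b) sequences drive the receptor for diphtheria toxin (DT) in monocytes and macrophages (MΦs). Granulocytes carry CD11b as well, but the authors state that DT does not target them in these mice. α7Sca1 cells are the Lin- cells that carry Sca1 as well as α7-integrin, taken from muscles injected with DT every 4 days and collected 15 days after the first injection. SCs DT are satellite cells (SCs, Lin- α7-integrin+ Sca1-), the muscle stem cells, from mice treated with DT in the same way, and SCs CTRL are SCs from mice injected with the vehicle PBS. No α7Sca1 library from PBS-injected mice was part of the design, so α7Sca1 cells differ from SCs CTRL both in the sort and in the treatment, and these cannot be told apart. Whether α7Sca1 cells and SCs DT came from the same mice is not given in the sources used here.

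CC chemokines are small secreted proteins named after a pair of adjacent cysteines near the amino terminus. They bind G protein-coupled receptors of the CCR family on leukocytes, attach to glycosaminoglycans on cell surfaces and in the matrix, and draw cells along the gradient so formed. In injured and dystrophic muscle, ligands of CCR2 are known for recruiting blood monocytes, the precursors of most muscle MΦs. The family is ordered here by role. The MCP and eotaxin group comprises Ccl2 (MCP-1) and Ccl7 (MCP-3), ligands of CCR2, Ccl8 (MCP-2), a ligand of CCR8 in the mouse, and Ccl11 (eotaxin), a ligand of CCR3 on eosinophils. The MIP group comprises Ccl3 (MIP-1α), a ligand of CCR1, and Ccl4 (MIP-1β), attractants of monocytes and T cells, and Ccl6 and Ccl9, rodent ligands of CCR1 made largely by myeloid cells. Ccl5 (RANTES) attracts T cells and eosinophils, among others through CCR1 and CCR3, and Ccl19 guides lymphocytes and dendritic cells through CCR7.

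Of the 10 genes, 9 lie on chromosome 11 in 2 clusters of NCBIM37, the mm9 build used by the authors, and Ccl19 lies on chromosome 4 (chr4:42768057-42770109, minus strand). Ccl2 (chr11:81849073-81850955), Ccl7 (chr11:81859214-81861027), Ccl11 (chr11:81871325-81876457) and Ccl8 (chr11:81928687-81930301) are on the plus strand within 81.2 kb. After a gap of 1.409 Mb follow Ccl5 (chr11:83339280-83344020), Ccl9 (chr11:83386421-83392138), Ccl6 (chr11:83401384-83406589) and Ccl3 (chr11:83461346-83462857) on the minus strand, and Ccl4 (chr11:83476086-83478185) on the plus strand, within 139 kb. In the GENCODE annotation of this build Gm17268 overlapped the span of Ccl2, E230016K23Rik that of Ccl6 and 4930578G10Rik that of Ccl19, but no exon of a chemokine gene shared bases with an exon of another gene. Reads were 50 bp long, and none of the 50-base stretches of the coding transcripts of 8 of the genes occurred in a transcript of another protein-coding gene. Ccl9 shared 56 of 2989 stretches with other genes, and Ccl19 shared 671 of 696 with the near-identical Gm2023 and Gm2442, so the value of Ccl19 is uncertain.

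Promoter sequences were taken from a RefSeq table (GRCm38.p6), which matched 5 of the 10 genes (Ccl3, Ccl6, Ccl8, Ccl9 and Ccl19). Ccl2, Ccl4, Ccl5, Ccl7 and Ccl11 had no entry. Of the matched sequences, those of 4 genes are shown because Ccl6, Ccl9 and Ccl3 had the same direction in α7Sca1 cells, whereas Ccl8 did not move with its cluster neighbours. Each is the 250 bases before the RefSeq start of the gene, 5′ to 3′ on the strand of the gene, and each matched 1 place in NCBIM37 exactly: Ccl6 at chr11:83406590-83406839, Ccl9 at chr11:83392139-83392388, Ccl3 at chr11:83462881-83463130 and Ccl8 at chr11:81928437-81928686. Capitals in Ccl6 and Ccl9 mark the stretch that aligned between them, and capitals in Ccl3 and Ccl8 mark a motif.
Ccl6: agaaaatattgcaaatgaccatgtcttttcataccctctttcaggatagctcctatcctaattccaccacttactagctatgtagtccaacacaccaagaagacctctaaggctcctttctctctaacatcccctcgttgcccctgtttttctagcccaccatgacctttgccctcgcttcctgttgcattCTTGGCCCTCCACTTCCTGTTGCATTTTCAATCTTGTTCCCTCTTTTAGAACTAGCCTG
Ccl9: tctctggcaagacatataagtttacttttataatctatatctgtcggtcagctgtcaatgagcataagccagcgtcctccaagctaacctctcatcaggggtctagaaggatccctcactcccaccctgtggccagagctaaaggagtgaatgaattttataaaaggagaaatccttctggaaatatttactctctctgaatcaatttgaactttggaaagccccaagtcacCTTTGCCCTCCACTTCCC
Ccl3: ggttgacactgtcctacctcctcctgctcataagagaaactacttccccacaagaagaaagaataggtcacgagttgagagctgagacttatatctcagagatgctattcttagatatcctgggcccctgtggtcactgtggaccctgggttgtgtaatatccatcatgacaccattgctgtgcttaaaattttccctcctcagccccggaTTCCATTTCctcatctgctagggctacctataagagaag
Ccl8: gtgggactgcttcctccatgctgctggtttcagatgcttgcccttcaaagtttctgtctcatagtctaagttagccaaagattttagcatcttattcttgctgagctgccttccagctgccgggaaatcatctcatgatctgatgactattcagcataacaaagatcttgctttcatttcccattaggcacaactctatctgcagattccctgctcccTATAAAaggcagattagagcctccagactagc

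The promoters of Ccl6 and Ccl9, whose genes lie 9.245 kb apart, shared a stretch of 74 alignment columns with 78.4% identical bases, which began 59 bases before the start of Ccl6 and 18 bases before that of Ccl9 and ran past both starts. The other pairs among these 4 promoters had alignment scores of 19 to 30, against 83 for Ccl6 and Ccl9. Motifs were searched on both strands within the 250 bases. The NF-kB motif was found in 1 of the 5 promoters (Ccl9), against 7.25% of 32851 promoters in the table. The AP-1 motif TGANTCA was found in Ccl9 alone, against 6.75% of promoters, its matches on both strands being the same bases. The interferon element core GAAANNGAA was found in Ccl3 (the capitals, read on the other strand) and in Ccl19, against 7.13% of promoters. The C/EBP motif TTGCNNAA was found in 0 of the 5, against 9.56%. The TATA box TATAAA, searched on the strand of the gene alone, was found in Ccl8 (the capitals, 32 bases before the start) and in Ccl9 (92 bases before it), against 7.59% of promoters. These motifs did not overlap one another in any of the 5 promoters.

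The values are RPKM (reads scaled to transcript length and library size) as deposited by the authors, and they follow 1 distribution in all libraries, so the depth is unknown and a shift shared by most genes cannot be seen. Differences were tested with limma on log2(RPKM + 1) over the 6 libraries for 13934 genes with a maximum above 0.25 RPKM, with Benjamini-Hochberg adjustment over all of them and a threshold of 0.05, and all fold changes are on this scale, which understates the change of low genes. With 2 libraries against 2, an exact permutation test cannot give a p below 0.333. The 3 comparisons share libraries pairwise, and their values stand side by side without a test between them. The label of the cells was checked against 10 satellite cell markers, whose summed level was 144 and 104 RPKM in α7Sca1 cells, 666 and 702 RPKM in SCs DT, and 639 and 739 RPKM in SCs CTRL. In α7Sca1 cells all 10 were lower, compared with either SC group. Des was the largest term in the SC libraries, with 325 and 334 RPKM in SCs DT. In SCs DT against SCs CTRL 0 of the 10 passed in limma, beside 0.445% of all genes. There 3 had an unadjusted p under 0.05, beside 10.4%. Chodl changed most (log2 fold change -2.18), while Itga7, Des and Itgb1 lay above 0. The 10 adipocyte markers summed to 11399 and 11385 RPKM in α7Sca1 cells, 231 and 642 RPKM in SCs DT, and 104 and 76.4 RPKM in SCs CTRL. The 19 macrophage and monocyte markers were above 0 in every library, although the sort leaves out CD45+ cells.

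Ccl2, Ccl7 and Ccl11 were the most abundant of the family in α7Sca1 cells and in SCs DT, and all 3 were upregulated in α7Sca1 cells compared with SCs CTRL. Ccl4, Ccl6 and Ccl9 were downregulated in α7Sca1 cells compared with either SC group, and Ccl3 compared with SCs DT. In SCs DT compared with SCs CTRL 0 of the 9 genes passed, against 0.445% of all genes tested, while 4 (Ccl2, Ccl7, Ccl11 and Ccl3) had an unadjusted p under 0.05 in limma, all with higher values in SCs DT, against 5.26% of all genes in that direction. Ccl5 and Ccl8 passed in no comparison.

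**Figure D1:**
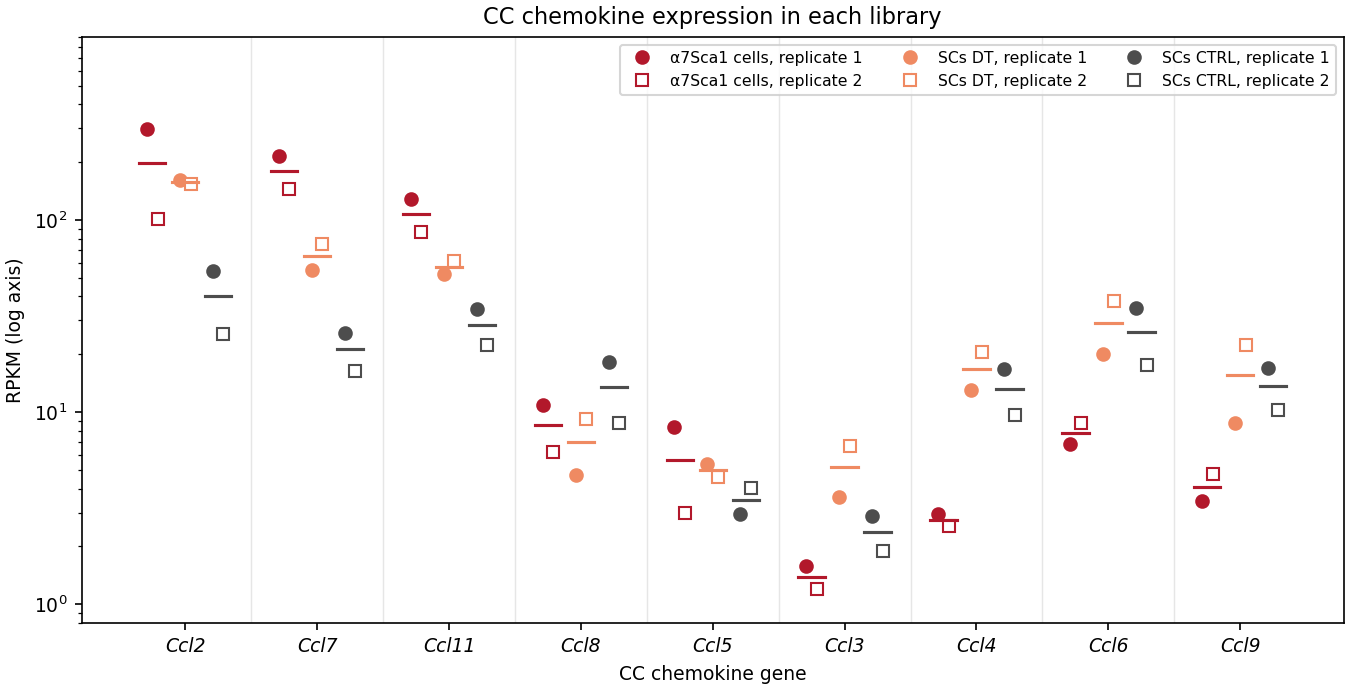
RPKM on a log axis of 9 CC chemokine genes (x axis) in α7Sca1 cells (red), SCs DT (orange) and SCs CTRL (grey), with replicate 1 as a filled circle, replicate 2 as an open square and the mean of the 2 libraries as a line. Ccl7 and Ccl11 stand highest in α7Sca1 cells and lowest in SCs CTRL without overlap, whereas Ccl4, Ccl6 and Ccl9 stand lowest in α7Sca1 cells; Ccl19 is not drawn, being at 0 in 5 of the 6 libraries.

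Ccl2, the main attractant of monocytes in this family, had 296 and 101 RPKM in α7Sca1 cells, 162 and 155 RPKM in SCs DT, and 54.5 and 25.6 RPKM in SCs CTRL. Both groups from DT-injected mice lay above SCs CTRL in every library, while the α7Sca1 libraries lay on either side of the SCs DT libraries. The log2 fold change was 2.18 in α7Sca1 cells against SCs CTRL (standard error 0.54, adjusted p = 0.0199 from limma), a mean RPKM 4.96-fold higher. It was 0.13 against SCs DT (adjusted p = 0.876), with a 95% confidence interval of -1.13 to 1.39. In SCs DT against SCs CTRL the mean was 3.95-fold higher, and the log2 fold change of 2.05 (standard error 0.54, 95% confidence interval 0.79 to 3.31) did not pass (adjusted p = 0.218 from limma). The call against SCs CTRL was lost without α7Sca1 replicate 1 (log2 fold change 1.41, adjusted p = 0.059), SC CTRL replicate 2 (1.65, adjusted p = 0.141) or SC DT replicate 2 (2.18, adjusted p = 0.0527), and with no filter (adjusted p = 0.0614). Without α7Sca1 replicate 1 the difference from SCs DT was -0.64. In a bulk library fewer cells of a type and less RNA per cell cannot be told apart, and this holds for every difference below.

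Ccl7, a second ligand of CCR2, had 217 and 145 RPKM in α7Sca1 cells, 55.1 and 74.7 RPKM in SCs DT, and 26.0 and 16.4 RPKM in SCs CTRL. The groups did not overlap, with the levels of SCs DT between those of the others. Ccl7 was the member with the largest difference between α7Sca1 cells and SCs CTRL, with a log2 fold change of 3.04 (standard error 0.33, adjusted p = 0.000753 from limma) and a mean RPKM 8.54-fold higher. This call held in all 15 alternative settings, with values of 2.73 to 3.36. Against SCs DT the log2 fold change was 1.45 (standard error 0.33, adjusted p = 0.0153). That call was lost without α7Sca1 replicate 1 (log2 fold change 1.17, adjusted p = 0.05003), SC DT replicate 1 (1.24, adjusted p = 0.125) or SC DT replicate 2 (1.67, adjusted p = 0.0586). In SCs DT against SCs CTRL the value was 1.59 (standard error 0.33, 95% confidence interval 0.82 to 2.36), with an unadjusted p of 0.00166 and an adjusted p = 0.118 from limma over all genes tested.

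Ccl11, the eosinophil attractant, had 128 and 86.3 RPKM in α7Sca1 cells, 52.2 and 61.2 RPKM in SCs DT, and 34.4 and 22.4 RPKM in SCs CTRL. Its order over the groups was that of Ccl7, again without overlap. The log2 fold change against SCs CTRL was 1.88 (standard error 0.31, adjusted p = 0.00398 from limma), and this call held in all 15 alternative settings, with values of 1.59 to 2.18. Against SCs DT it was 0.89 and did not pass (adjusted p = 0.0657), but passed without α7Sca1 replicate 2 (1.17, adjusted p = 0.0397). The value for SCs DT against SCs CTRL was 1.00 (95% confidence interval 0.28 to 1.72, adjusted p = 0.297 from limma).

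Ccl8, the remaining MCP in the list, had 10.9 and 6.19 RPKM in α7Sca1 cells, 4.70 and 9.25 RPKM in SCs DT, and 18.2 and 8.82 RPKM in SCs CTRL. All 3 groups overlapped. Its log2 fold change was -0.57 in α7Sca1 cells against SCs CTRL (95% confidence interval -1.57 to 0.43), 0.28 against SCs DT (-0.73 to 1.28) and -0.85 in SCs DT against SCs CTRL (-1.85 to 0.16). Relative to Ccl2 of the same library, Ccl8 stood at 0.0369 and 0.0612 in α7Sca1 cells, 0.0290 and 0.0599 in SCs DT, and 0.334 and 0.344 in SCs CTRL. Thus the ratio of these MCPs was lower in each library from DT-injected mice than in each control library, given as a description with no test. Ccl8 lies 52.229 kb beyond Ccl11, with Ccl12, another ligand of CCR2 that did not pass, between them.

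In the MIP group, Ccl4 had 2.95 and 2.54 RPKM in α7Sca1 cells, 13.0 and 20.7 RPKM in SCs DT, and 16.7 and 9.70 RPKM in SCs CTRL. The α7Sca1 libraries lay below every SC library, and the SC groups overlapped. Ccl4 fell by 2.22 on the log2 scale against SCs DT (standard error 0.31, adjusted p = 0.00236 from limma) and by 1.88 against SCs CTRL (standard error 0.31, adjusted p = 0.00433). Both calls held in all 15 alternative settings, the only ones of the MIP group to do so in both comparisons.

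Ccl3, the neighbour of Ccl4 and a ligand of CCR1, was less abundant, with 1.58 and 1.20 RPKM in α7Sca1 cells, 3.62 and 6.69 RPKM in SCs DT, and 2.88 and 1.89 RPKM in SCs CTRL. The 3 groups did not overlap, SCs DT being highest and α7Sca1 cells lowest. Ccl3 fell by 1.32 on the log2 scale against SCs DT (standard error 0.28, adjusted p = 0.0125 from limma). This call was lost without SC DT replicate 2 (-0.95, adjusted p = 0.0703) or α7Sca1 replicate 2 (-1.21, adjusted p = 0.0592). The value against SCs CTRL was -0.49 (95% confidence interval -1.15 to 0.17, adjusted p = 0.223), and that of SCs DT against SCs CTRL was 0.83 (0.17 to 1.49, adjusted p = 0.357). The ratio of Ccl4 to Ccl3 was 1.87 and 2.11 in α7Sca1 cells, 3.59 and 3.09 in SCs DT, and 5.80 and 5.13 in SCs CTRL, without overlap between groups.

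Ccl6, a ligand of CCR1, had 6.83 and 8.80 RPKM in α7Sca1 cells, 20.1 and 37.7 RPKM in SCs DT, and 34.9 and 17.6 RPKM in SCs CTRL. Ccl9, its neighbour and another ligand of CCR1, had 3.44 and 4.75 RPKM in α7Sca1 cells, 8.74 and 22.3 RPKM in SCs DT, and 17.0 and 10.2 RPKM in SCs CTRL. For both genes the α7Sca1 libraries lay below all SC libraries, and within the SC groups SC DT replicate 2 and SC CTRL replicate 1 were the higher ones.
Ccl6 fell by 1.71 against SCs DT (standard error 0.40, adjusted p = 0.0170 from limma) and by 1.56 against SCs CTRL (standard error 0.40, adjusted p = 0.0223). Ccl9 fell by 1.58 against SCs DT (standard error 0.43, adjusted p = 0.0296) and by 1.49 against SCs CTRL (standard error 0.43, adjusted p = 0.0342). Of the chemokine calls, those of Ccl9 were lost in the most fits that left out a library. Against SCs DT, Ccl6 did not pass without SC DT replicate 2 (-1.27, adjusted p = 0.115) or α7Sca1 replicate 1 (-1.55, adjusted p = 0.0718), and Ccl9 passed in 1 of the 6 fits that left out a library (without SC DT replicate 1), with adjusted p of 0.0538 to 0.143 and values of -0.95 to -1.76 in the others. Against SCs CTRL, Ccl6 did not pass without SC CTRL replicate 1 (-1.09, adjusted p = 0.146) or either α7Sca1 library (adjusted p of 0.0569 and 0.0886), and Ccl9 did not pass without any 1 library of the groups compared (-1.15 to -1.83, adjusted p of 0.0765 to 0.207). With no filter, neither gene passed against SCs DT (adjusted p of 0.0506 and 0.079) or against SCs CTRL (adjusted p of 0.0608 and 0.0874). The direction was the same in all of these fits.

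Ccl5, an attractant of T cells, had 8.36 and 2.97 RPKM in α7Sca1 cells, 5.36 and 4.59 RPKM in SCs DT, and 2.94 and 4.03 RPKM in SCs CTRL. The α7Sca1 libraries lay on either side of the SCs DT libraries and overlapped those of SCs CTRL, while SCs DT lay above SCs CTRL. Its log2 fold change was 0.45 in α7Sca1 cells against SCs CTRL (95% confidence interval -0.44 to 1.35), 0.03 against SCs DT (-0.86 to 0.93) and 0.42 in SCs DT against SCs CTRL (-0.47 to 1.32). Only without α7Sca1 replicate 2 did it pass, against SCs CTRL (1.07, adjusted p = 0.0218 from limma). The 13 T and NK cell markers, genes of cells that express Ccl5, summed to 1.11 and 0.623 RPKM in α7Sca1 cells, 1.05 and 0.856 RPKM in SCs DT, and 2.05 and 2.46 RPKM in SCs CTRL. Of these markers 4 (Cd3g, Nkg7, Gzmb and Prf1) were at 0 in both α7Sca1 libraries, whereas Cd3e stood at 0.233 and 0.212 RPKM in α7Sca1 cells and at most 0.155 RPKM in any SC library. Ccl19 was listed at 0.0678 RPKM in α7Sca1 replicate 1 and at 0 in the other libraries.

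**Figure D2:**
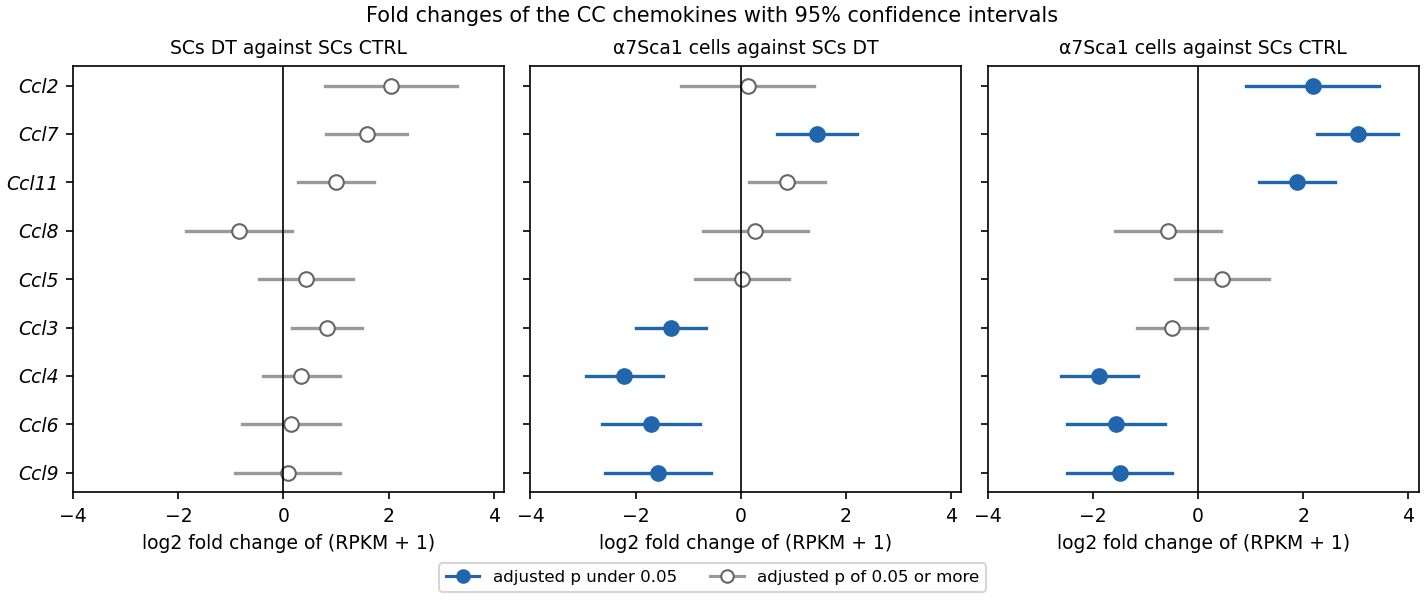
Log2 fold changes of RPKM + 1 (x axis) of 9 CC chemokine genes for SCs DT against SCs CTRL, α7Sca1 cells against SCs DT and α7Sca1 cells against SCs CTRL, with limma's 95% confidence intervals as lines. Filled points had an adjusted p under 0.05 over all genes tested: 0 of 9 in the left panel, 5 of 9 in the middle and 6 of 9 in the right.

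Counted over the 9 genes tested, 1 was higher and 4 were lower in α7Sca1 cells relative to SCs DT, against 14.6% and 15.6% of all genes tested. Compared with SCs CTRL, 3 were higher and 3 lower, against 15.1% and 17.3% of all genes. Without α7Sca1 replicate 1 the counts were 2 in all against SCs DT and 3 against SCs CTRL, without SC DT replicate 2 there was 1 against SCs DT, and with no filter there were 3 in each comparison. The libraries of the groups did not overlap for 2 higher and 4 lower genes in α7Sca1 cells against SCs DT (30.8% and 36.4% of all genes), for 3 higher and 4 lower genes against SCs CTRL (30% and 38.1%), and for 5 higher genes in SCs DT against SCs CTRL (21.6%). The median log2 fold change of the 9 genes was 0.03 against SCs DT and -0.49 against SCs CTRL for α7Sca1 cells, and 0.42 for SCs DT against SCs CTRL, beside -0.04, -0.06 and -0.01 over all genes tested.

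**Figure D3:**
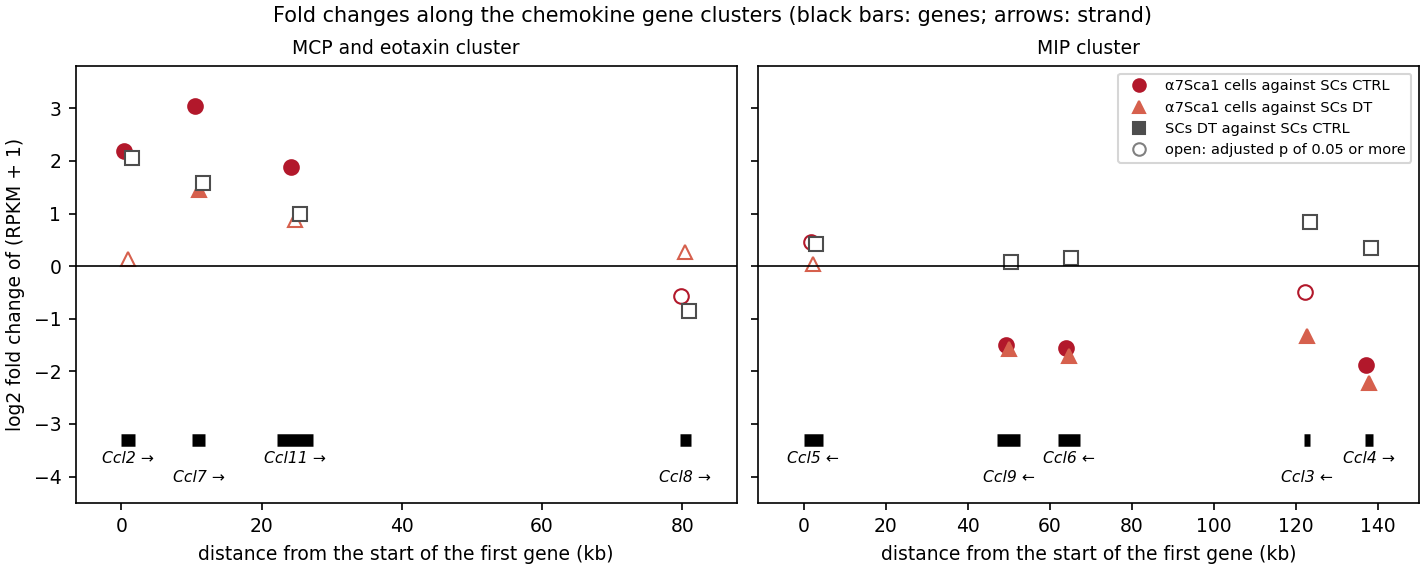
Log2 fold changes of RPKM + 1 (y axis) placed along the MCP and eotaxin cluster (left) and the MIP cluster (right) of chromosome 11, with the distance from the start of the first gene in kb on the x axis, genes as black bars and their strand as arrows. Filled symbols had an adjusted p under 0.05: they lie above 0 for Ccl2, Ccl7 and Ccl11 and below 0 for Ccl9, Ccl6, Ccl3 and Ccl4, while all symbols of Ccl8 and Ccl5 are open.

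Summed over the 10 genes, CC chemokines stood at 676 and 359 RPKM in α7Sca1 cells, 325 and 392 RPKM in SCs DT, and 207 and 117 RPKM in SCs CTRL. The control libraries were the lowest, and the α7Sca1 libraries differed from each other by more than SCs DT did. The MCP and eotaxin group made up 96.6% and 94.4% of this sum in α7Sca1 cells, 84.4% and 76.5% in SCs DT, and 64.2% and 62.7% in SCs CTRL. The MIP group made up 2.19% and 4.82% in α7Sca1 cells, 14.0% and 22.3% in SCs DT, and 34.4% and 33.8% in SCs CTRL. Neither share overlapped between groups. The MIP sums themselves overlapped between the SC groups, with 45.5 and 87.4 RPKM in SCs DT and 71.4 and 39.5 RPKM in SCs CTRL. In α7Sca1 cells they were 14.8 and 17.3 RPKM. The MCP and eotaxin sums were 274 and 299.7 RPKM in SCs DT and 133 and 73.3 RPKM in SCs CTRL. In the order of mean RPKM, Ccl2 came first in all groups. It was followed by Ccl7 and Ccl11 in α7Sca1 cells, where Ccl2 and Ccl7 overlapped, and in SCs DT, where Ccl7 and Ccl11 overlapped. In both groups these 3 genes lay above all others without overlap. In SCs CTRL, neighbours overlapped throughout the first 7 ranks (Ccl2, Ccl11, Ccl6, Ccl7, Ccl9, Ccl8 and Ccl4).

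**Figure D4:**
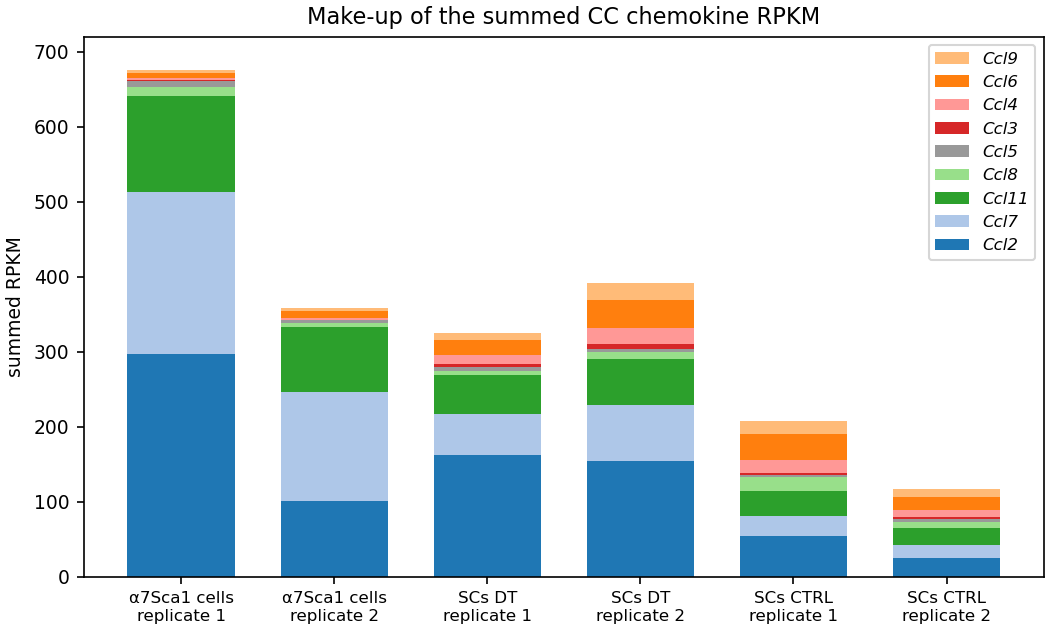
Summed RPKM of the CC chemokine genes (y axis) in each of the 6 libraries, with 1 colour for each gene and blue and green for the MCP and eotaxin group. The sum is 676 and 359 RPKM in α7Sca1 cells, 325 and 392 RPKM in SCs DT and 207 and 117 RPKM in SCs CTRL, and the red and orange share of the MIP group is largest in SCs CTRL.

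The MIP genes are known products of myeloid cells, and they were set beside the macrophage and monocyte markers. The 19 markers summed to 325 and 300.2 RPKM in α7Sca1 cells, 313 and 622 RPKM in SCs DT, and 1131 and 628 RPKM in SCs CTRL, none at 0 in any library. Compared with SCs CTRL 14 of the 19 were lower and 0 higher in α7Sca1 cells, and compared with SCs DT 7 were lower and 1 higher, the monocyte receptor Cd14 (194 and 197 RPKM in α7Sca1 cells against 42.6 and 106 RPKM in SCs DT). Over all genes tested 17.3% were lower and 15.1% higher against SCs CTRL, and 15.6% lower and 14.6% higher against SCs DT. In SCs DT against SCs CTRL 1 marker, Mrc1, was lower, beside 0.445% of all genes called in either direction. In that comparison 11 of the 19 had an unadjusted p under 0.05 in limma, against 10.4% of all genes in either direction. The median log2 fold change of the markers was -0.75, beside -0.01 over all genes tested, with Ly6c2, Fcgr1 and Cd163 above 0. Within the SC groups SC DT replicate 2 and SC CTRL replicate 1 had the higher marker sum, as they had the higher values of Ccl3, Ccl4, Ccl6 and Ccl9. For every 100 RPKM of the markers, the 4 MIP genes had 4.56 and 5.76 RPKM in α7Sca1 cells, 14.5 and 14.1 RPKM in SCs DT, and 6.32 and 6.29 RPKM in SCs CTRL. Leaving out Cd14, a choice made after its values were seen, gave 11.4 and 16.7 RPKM in α7Sca1 cells, 16.8 and 16.9 RPKM in SCs DT, and 6.997 and 7.13 RPKM in SCs CTRL. The libraries of a group thus agreed closely in the SC groups, and the place of α7Sca1 cells depended on Cd14. SCs DT stood about as far above SCs CTRL in both forms. Lyz2 was the largest term of the marker sum in the SC libraries. It had 138 and 253 RPKM in SCs DT and 622 and 309 RPKM in SCs CTRL. Both forms keep Lyz2, and no other choice of markers was tried. The size of the distance between the SC groups therefore holds for this list alone. The 9 neutrophil markers, also of cells that make Ccl3 and Ccl4, summed to 32.2 and 21.5 RPKM in α7Sca1 cells, 35.8 and 50.1 RPKM in SCs DT, and 15.5 and 13.4 RPKM in SCs CTRL. Of the 8 tested, 1 (S100a8) was higher in SCs DT against SCs CTRL (adjusted p = 0.0152 from limma). In α7Sca1 cells 1 (Elane) was higher and 2 (S100a8 and S100a9) were lower against SCs DT, and 3 (Elane, S100a8 and Camp) were higher against SCs CTRL. Elane had 8.80 and 4.11 RPKM in α7Sca1 cells and at most 0.0529 RPKM in any SC library, so the neutrophil markers did not move together. The part of macrophage and neutrophil RNA in the levels of the MIP genes was not tested.

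**Figure D5:**
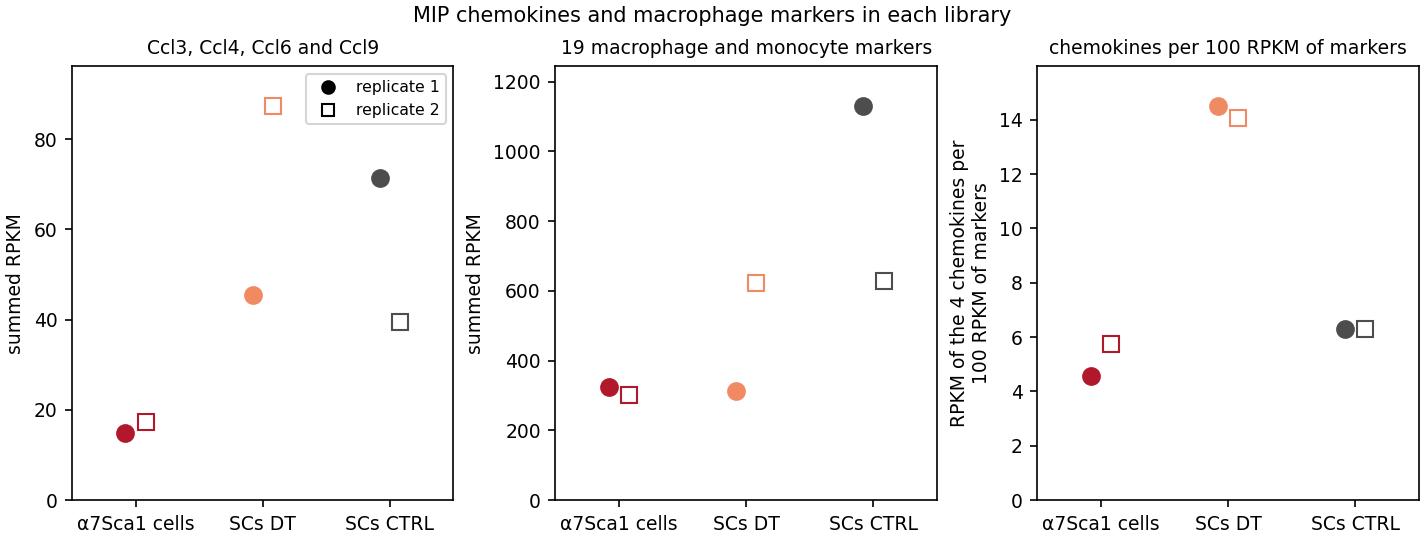
Summed RPKM of Ccl3, Ccl4, Ccl6 and Ccl9 (left), of 19 macrophage and monocyte markers (middle) and the 4 chemokines per 100 RPKM of the markers (right) in each library of α7Sca1 cells (red), SCs DT (orange) and SCs CTRL (grey), with replicate 1 filled and replicate 2 open. Per 100 RPKM of markers, SCs DT stand at 14.5 and 14.1 RPKM, above 4.56 and 5.76 RPKM in α7Sca1 cells and 6.32 and 6.29 RPKM in SCs CTRL.

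Ccl2, Ccl7 and Ccl11 had lower means in SCs CTRL than in the other groups. Besides the macrophage markers, lists of other cells that are known to make these chemokines also differed between the libraries. The 11 FAP and fibroblast markers summed to 1471 and 936 RPKM in α7Sca1 cells, 443 and 598 RPKM in SCs DT, and 3665 and 650 RPKM in SCs CTRL, none at 0. SC CTRL replicate 1 stood apart from SC CTRL replicate 2 in several of them, with 2287 against 192 RPKM of Col1a1, 386 against 71.7 RPKM of Col1a2 and 425 against 67.6 RPKM of Dcn. In α7Sca1 cells 2 of the 11 were higher than in either SC group, Ly6a, which encodes the Sca1 used in the sort, and Pdgfra. Against SCs CTRL 1, Pdpn, was lower. Over all genes tested 14.6% were higher against SCs DT and 15.1% against SCs CTRL, and 17.3% were lower against SCs CTRL. The counts of the FAP and fibroblast markers in α7Sca1 cells lay near these shares. In SCs DT against SCs CTRL 0 of the 11 passed in limma, beside 0.445% of all genes. There 7 had an unadjusted p under 0.05, beside 10.4%. The median log2 fold change of the 11 was -0.80, beside -0.01 over all genes tested, with Ly6a, Pdgfra and Thy1 above 0. All 10 adipocyte markers were higher in α7Sca1 cells, and Lep was at 0 in all SC libraries. In SCs DT against SCs CTRL 1 of them, Cfd, was higher (adjusted p = 0.0346 from limma), beside 0.445% of all genes called. Of the 10, 6 had an unadjusted p under 0.05 there, beside 10.4% of all genes. The 8 pericyte and smooth muscle markers, Des among them, summed to 246 and 99.5 RPKM in α7Sca1 cells. They summed to 1440 and 1141 RPKM in SCs DT and 796 and 947 RPKM in SCs CTRL. The 10 endothelial markers summed to 19.4 and 10.9 RPKM in α7Sca1 cells and 26.5 and 38.1 RPKM in SCs DT. In SCs CTRL their sums were 37.6 and 26.6 RPKM. The part of macrophages or of such other cells in the levels of the MCP and eotaxin group was not tested.

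Patterns over the 6 libraries were compared between each chemokine with a group mean of at least 5 RPKM and 5177 other genes of at least that level, by Pearson's r of log2(RPKM + 1), as a description in which the groups are shared by all genes. Closest to Ccl7 were Hrct1, the metallothionein Mt1 and Plac8 (r of 0.998, 0.995 and 0.993), and to Ccl11 Mt1, H2-M9 and Sash1 (0.994, 0.994 and 0.994). Closest to Ccl2 were the transglutaminase Tgm2, the interferon-induced Bst2 and the NF-kB inhibitor Nfkbia (0.971, 0.971 and 0.951). Ccl9 was closest to Asb6, the leukocyte antigen Cd52 and its receptor Ccr1 (0.993, 0.992 and 0.989), and Ccl6 to the interleukin-1 receptor antagonist Il1rn, Fxyd5 and Asb6 (0.983, 0.982 and 0.981). Ccl4 was closest to Sec14l1, Snx4 and Rrp9 (0.994, 0.987 and 0.984), Ccl3 to Coro6, Glipr1 and Abcg2 (0.992, 0.978 and 0.978), Ccl5 to Gtf2h5, Mrps21 and Ndufb7 (0.982, 0.969 and 0.968), and Ccl8 to Prkab1, the lysosomal protease Ctsz and Gna11 (0.983, 0.959 and 0.957). Within the family r was 0.994 for Ccl7 and Ccl11, 0.986 for Ccl6 and Ccl9 and 0.972 for Ccl4 and Ccl6, and -0.67 for Ccl4 and Ccl7.

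Of 12 further CC ligands with RPKM values, 6 were tested, and 0, 1 and 2 of them were lower in SCs DT against SCs CTRL, α7Sca1 cells against SCs DT and α7Sca1 cells against SCs CTRL, with none higher in limma, and 1 of the 6 had an unadjusted p under 0.05 in SCs DT against SCs CTRL. Over all genes tested 15.6% and 17.3% were lower in α7Sca1 cells against SCs DT and against SCs CTRL, and 10.4% had an unadjusted p under 0.05 in SCs DT against SCs CTRL. The ligands were the eosinophil attractant Ccl24 (0.608 and 0.338 RPKM in α7Sca1 cells, 1.21 and 1.02 RPKM in SCs DT, and 1.21 and 1.12 RPKM in SCs CTRL), in both comparisons of α7Sca1 cells, and Ccl22 against SCs CTRL. Of 11 CC receptors 4 were tested. Ccr1, the receptor of Ccl6 and Ccl9, had 1.04 and 1.87 RPKM in α7Sca1 cells, 2.98 and 7.57 RPKM in SCs DT, and 4.93 and 3.19 RPKM in SCs CTRL, and fell in α7Sca1 cells against SCs DT (log2 fold change -1.27, adjusted p = 0.0415 from limma). Ccr7 fell in α7Sca1 cells against SCs CTRL (-1.01, adjusted p = 0.0489), with 2.68 RPKM in SC CTRL replicate 2 and at most 0.736 RPKM elsewhere. Ccr2, the receptor of Ccl2 and Ccl7, did not pass and had at most 1.33 RPKM in any library. The atypical and scavenging receptors were more abundant. Ackr1, which binds CC chemokines without signalling, had 16.2 and 3.77 RPKM in α7Sca1 cells, 14.8 and 26.1 RPKM in SCs DT, and 7.82 and 10.2 RPKM in SCs CTRL, and did not pass. Among the 4 of them tested, Ccrl2, which binds chemerin, fell in α7Sca1 cells against SCs DT (-1.59, adjusted p = 0.0028) and against SCs CTRL (-1.48, adjusted p = 0.0035), and the CXCL12 scavenger Ackr3 fell against SCs CTRL (-1.01, adjusted p = 0.0197).

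A list of regulators of chemokine genes held 23 tested cytokines, receptors and adaptors, not all of them inducers, since Il10 and its receptor genes were included. Of these 23, 4 were higher and 5 lower in α7Sca1 cells against SCs DT, beside 14.6% and 15.6% of all genes tested. Against SCs CTRL 8 were higher and 3 lower, beside 15.1% and 17.3% of all genes. In SCs DT against SCs CTRL 0 passed in limma, and 3 had an unadjusted p under 0.05, beside 10.4% of all genes. The counts are given as a description, and those against SCs DT lay near the shares of all genes. Il10 was among the lower genes in both comparisons of α7Sca1 cells, and Il10ra in that against SCs CTRL. Il33, an alarmin of the interleukin-1 family, had 54.5 and 28.8 RPKM in α7Sca1 cells, 15.8 and 13.0 RPKM in SCs DT, and 8.20 and 4.52 RPKM in SCs CTRL. Myd88, the adaptor of Toll-like and interleukin-1 receptors, had 66.7 and 158 RPKM in α7Sca1 cells, 23.0 and 29.9 RPKM in SCs DT, and 25.5 and 23.0 RPKM in SCs CTRL. Il1r1, the interleukin-1 receptor, was higher in α7Sca1 cells as well, by 1.04 against SCs DT and 1.67 against SCs CTRL on the log2 scale. The ligands Il1a (-1.01, adjusted p = 0.0138 from limma) and Il1b (-1.39, adjusted p = 0.0111) were lower against SCs DT. Il6 was also lower in that comparison (-1.39, adjusted p = 0.0145). Against SCs CTRL Il1b was lower (-0.94, adjusted p = 0.0423), while Il1a and Il6 did not pass. Tnf, the myeloid cytokine, had the direction of the MIP genes, with 3.18 and 3.01 RPKM in α7Sca1 cells against 7.72 and 12.7 RPKM in SCs DT (log2 fold change -1.42, adjusted p = 0.0098 from limma).

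Of 25 transcription factors of chemokine genes and their inhibitors, 6 were higher and 2 lower in α7Sca1 cells against SCs DT, beside 14.6% and 15.6% of all genes tested. Against SCs CTRL 9 were higher and 1 lower, beside 15.1% and 17.3% of all genes. In SCs DT against SCs CTRL 0 passed in limma, and 5 had an unadjusted p under 0.05, beside 10.4% of all genes. The interferon-regulated Irf7 had 80.7 and 52.6 RPKM in α7Sca1 cells, 18.4 and 18.4 RPKM in SCs DT, and 7.21 and 5.62 RPKM in SCs CTRL. Irf1 (84.4 and 106 RPKM in α7Sca1 cells, 30.1 and 36.8 RPKM in SCs DT, and 23.8 and 21.0 RPKM in SCs CTRL) and Irf8 (11.1 and 11.1 RPKM in α7Sca1 cells, 2.04 and 2.24 RPKM in SCs DT, and 3.04 and 1.57 RPKM in SCs CTRL) were higher in α7Sca1 cells than in both SC groups. Tnfaip3, the NF-kB target that restrains NF-kB signalling, was higher in α7Sca1 cells than in SCs CTRL (log2 fold change 1.82, adjusted p = 0.00355 from limma). Of 12 proteoglycan carriers of chemokines and enzymes of their sugar chains, 4 were lower in α7Sca1 cells against SCs DT, beside 15.6% of all genes tested, and 5 against SCs CTRL, beside 17.3%, with none higher. Among these were the glypican Gpc1 (5.98 and 1.97 RPKM in α7Sca1 cells, 24.9 and 21.5 RPKM in SCs DT, and 19.5 and 20.5 RPKM in SCs CTRL), the heparan sulfate sulfotransferase Hs2st1 and the syndecans Sdc3 and, against SCs CTRL, Sdc2.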

How the data were processed

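RNA-Seq libraries were prepared by SMART-seq2, and 50 bp single-end reads were aligned by the authors to mm9 with TopHat (the submitters' processing notes list TopHat2 2.0.8). The annotation they used is not given in the sources used here. The authors deposited RPKM values, whose sorted columns differ by at most 0.0192 RPKM between libraries. Each library's depth is therefore unknown, and no counting interval is given. A deposited table of the authors' own comparison, with fold changes and p-values, was not used, nor were its 10 columns of values per sample.

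Linear models of log2(RPKM + 1) with no replicate block were fitted in limma 3.58.1 under R 4.3.3 to the 6 libraries together, using the 13934 genes above 0.25 RPKM in any library and a variance trend (3 residual and 4.29 prior degrees of freedom). The fit was also run on simulated data with independent normal noise of the fitted spread. Such data meet the assumptions of the model, so they cannot show how it behaves on these libraries. Replicates are pools of 2 mice, so p-values measure the spread between pools. The chemokines and all lists were chosen with earlier results of these data known. Named genes are all members, from each list up to 4 genes that passed in any comparison by size of fold change, otherwise 2 of the highest RPKM, and the 3 genes most alike in pattern. Ccl12, Ccr2, Ackr1, Il1a, Il1b, Il6, Il10, Il10ra and the single cell markers were named after their values were seen. Alternatives were pseudocounts of 0.1 and 0.5, other filters, scalings and variance models, fits on the groups compared only, a replicate block and each library left out in turn, with the filter applied to the libraries in the fit. Promoters came from RefSeq (GRCm38.p6) and were placed by exact match in NCBIM37, and gene positions from GENCODE. They were aligned with Biopython 1.88 (match 2, mismatch -2, gap opening -5, gap extension -1). Other software was matplotlib 3.10.9, pandas 2.3.3, numpy 2.4.6 and Python 3.11.15.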

Additional observations from a re-analysis of the deposited data

How the results depend on the processing

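The count of CC chemokines passing in SCs DT against SCs CTRL was 0 under all 15 alternatives. In α7Sca1 cells against SCs DT it was 5, and 3 with no filter and 1 to 4 with a library left out. In α7Sca1 cells against SCs CTRL it was 6, and 3 with no filter and 3 to 6 with a library left out. Over all genes, 62 passed in SCs DT against SCs CTRL, 4 with no filter, 35 by eBayes without trend and 0 to 55 with a library left out (0 without SC CTRL replicate 1 or SC DT replicate 2). In α7Sca1 cells 4216 passed against SCs DT (1791 to 4462 with a library left out) and 4506 against SCs CTRL (1939 to 4749). The replicate numbers are not stated to mark shared mice or days, and the differences between replicates 1 and 2 correlated over genes at 0.25 between α7Sca1 cells and SCs DT, 0.16 between α7Sca1 cells and SCs CTRL and -0.13 between SCs DT and SCs CTRL. With a replicate block 0, 5 and 6 chemokines passed in SCs DT against SCs CTRL, α7Sca1 cells against SCs DT and α7Sca1 cells against SCs CTRL, as without it, and 92, 4336 and 4636 genes in all.

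With a library left out, directions turned only in values that had not passed. In SCs DT against SCs CTRL, Ccl4 ranged from -0.022 (without SC CTRL replicate 2) to 0.70, Ccl6 from -0.33 (without SC CTRL replicate 2) to 0.62 with -0.29 if SC DT replicate 2 was omitted, and Ccl9 from -0.55 (without SC DT replicate 2) to 0.71 with -0.25 if SC CTRL replicate 2 was omitted. In α7Sca1 cells against SCs DT, Ccl2 ranged from -0.64 (without α7Sca1 replicate 1) to 0.90, Ccl5 from -0.59 (without α7Sca1 replicate 1; -0.06 without SC DT replicate 2) to 0.65, and Ccl8 from -0.15 (without SC DT replicate 1; -0.09 without α7Sca1 replicate 1) to 0.70. In α7Sca1 cells against SCs CTRL, Ccl5 ranged from -0.16 (without α7Sca1 replicate 1) to 1.07. The cause of these changes was not tested. The depth behind the RPKM is unknown, so no limit from counting can be given. The alternatives were run for the chemokines and for the counts over all genes, not for the other gene lists.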

Other observations

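The libraries of a group differed from each other in the same direction for most chemokines. Of the 10 genes, 8 were higher in α7Sca1 replicate 1 and 2 in replicate 2. In SCs DT 7 were higher in replicate 2 and 2 in replicate 1, and in SCs CTRL 8 were higher in replicate 1 and 1 in replicate 2. Of all genes tested, 47.9% in α7Sca1 cells, 46.2% in SCs DT and 43.8% in SCs CTRL were higher in replicate 1. The ratio of Ccl6 to Ccl9 varied less than the level of either gene. Ccl6 stood at 1.98 and 1.85 times Ccl9 in α7Sca1 cells, 2.31 and 1.69 times in SCs DT, and 2.06 and 1.72 times in SCs CTRL. Ccl7 stood at 0.731 and 1.44 times Ccl2 in α7Sca1 cells, 0.34 and 0.484 times in SCs DT, and 0.477 and 0.641 times in SCs CTRL, so that α7Sca1 cells had the highest ratio in both libraries. These are values with no test.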
